A study of Mus musculus with 24 samples.

Results

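The genes described here are 10 markers of neighbouring surfaces of the brain ventricles, drawn from the 30153 genes in a table of 24 mouse libraries. Ttr, Folr1, Kcne2, Clic6, Prlr and Otx2 mark the choroid plexus epithelium, and Foxj1, Sntn, Spag6 and Ccdc153 mark ependymal cells with motile cilia. They were selected on values from the same libraries, namely their levels in the libraries coded S1 to S8 and the difference between S5 to S8 and S1 to S4. Their levels and age differences in those 8 libraries are therefore given as a description, with no test.

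The choroid plexus is a folded epithelium inside the ventricles that secretes cerebrospinal fluid and proteins such as transthyretin. Ependymal cells line the ventricle walls and move that fluid with bundles of motile cilia, whose core, the axoneme, is built from microtubules, dynein arms, radial spokes and a central pair. Foxj1, together with factors of the RFX family, switches on the genes of motile cilia. Kidney tubule cells carry a single non-motile cilium, so axonemal genes are low in adult kidney, while Folr1 and Prlr are known to be expressed in kidney too.

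Polyadenylated RNA was measured in 6 groups of 4 animals of the strain C57/BL6, all labelled as kidney tissue. Hap-I and Hap-II mice carry haplotype I or II of a human gene, that of angiotensin receptor type 1, and the C57 group carries neither. The groups were Hap-I adults on western diet (libraries A1 to A4), aged Hap-I mice on western diet (B1 to B4), Hap-II adults on western diet (C1 to C4), Hap-I adults (S1 to S4), aged Hap-I mice (S5 to S8) and C57 adults (S9 to S12). No diet is named for the last 3 groups, and this is read here as no western diet. Sex, age in months, batch and the promoter of the transgene are not given in the labels. The unit is TPM (transcripts per 1000000), which keeps no read depth, so the depth behind each value is unknown.

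The tissue label was checked against defining markers, and S1 to S8 went against it. The summed level of 12 neuronal genes was 5780 to 7317 TPM in S1 to S8 and at most 14.2 TPM in the other 16 libraries. The summed level of 9 proximal tubule genes was 8.16 to 124 TPM in S1 to S8 and 9617 to 82620 TPM in the other 16. S1 to S8 are therefore called brain-like below, the other 16 are called kidney libraries, and no comparison is made between these sets. In bulk RNA, fewer cells of a type and less RNA per cell cannot be told apart.

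Promoter sequences are shown first for 3 ciliary members and 1 choroid plexus member, because these hold a short RFX motif in their RefSeq promoter windows (build GRCm38.p6). Only the 250 bases before the annotated start are printed, 5′ to 3′ on the gene's strand, which is the plus strand for all 4. Capitals mark the RFX core motif GTTGCC or its reverse complement GGCAAC, and in Sntn also the forkhead motif GTAAACA. The stretches lie at chr9:44240427-44240676 for Ccdc153, chr14:13670626-13670875 for Sntn, chr2:18698772-18699021 for Spag6 and chr16:92292139-92292388 for Kcne2.
Ccdc153: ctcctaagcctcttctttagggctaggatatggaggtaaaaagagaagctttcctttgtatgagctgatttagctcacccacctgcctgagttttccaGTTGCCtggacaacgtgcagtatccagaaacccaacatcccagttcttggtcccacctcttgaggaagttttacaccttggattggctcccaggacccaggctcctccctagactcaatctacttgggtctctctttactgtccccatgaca
Sntn: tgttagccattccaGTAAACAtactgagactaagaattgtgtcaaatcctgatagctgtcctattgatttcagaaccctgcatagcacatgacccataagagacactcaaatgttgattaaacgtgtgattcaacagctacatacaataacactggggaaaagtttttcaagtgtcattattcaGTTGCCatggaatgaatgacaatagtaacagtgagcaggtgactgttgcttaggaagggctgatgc
Spag6: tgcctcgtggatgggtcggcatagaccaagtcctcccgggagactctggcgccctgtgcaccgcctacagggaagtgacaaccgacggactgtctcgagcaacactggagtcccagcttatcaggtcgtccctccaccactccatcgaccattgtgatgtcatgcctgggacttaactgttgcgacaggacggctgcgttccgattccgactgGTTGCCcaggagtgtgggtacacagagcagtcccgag
Kcne2: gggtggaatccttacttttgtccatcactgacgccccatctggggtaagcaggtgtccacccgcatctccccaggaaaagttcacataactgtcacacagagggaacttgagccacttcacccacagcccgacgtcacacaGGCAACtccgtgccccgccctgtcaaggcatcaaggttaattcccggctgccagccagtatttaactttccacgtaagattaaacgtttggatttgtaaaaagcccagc

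Of the 10 members, 6 had a promoter entry (Ccdc153, Kcne2, Otx2, Prlr, Sntn and Spag6), with 12 windows of 300 bases among them. Both strands were searched. The core motif was found in 3 of 3 windows of ciliary members, at 152 bases before the start in Ccdc153, 66 bases before it in Sntn and 37 bases before it in Spag6. It was also found 109 bases before the start of Kcne2 and in 2 overlapping windows of Otx2, which share 1 of the hits. Among all 32851 promoter windows, 12.51% held the core motif, against 39.63% of 164 windows of the other motile cilia genes and 13.24% of 68 windows of the other choroid plexus genes. A paired RFX site, GTTNCC and GGNAAC with 0 to 3 bases between them, was in none of the members' windows, in 6.1% of windows of the other motile cilia genes and in 0.8% of all windows. Hits of the core motif can lie within a paired site. The forkhead motif was in 1 window each of Sntn and Prlr and in 3.65% of all windows, and the OTX motif TAATCC, bound by Otx2 and its relatives, was in 1 window of Otx2 itself and in 7.06% of all windows. The E-box CANNTG was in 72.31% of all windows and in 67.68% of those of the other motile cilia genes. A match is a description of letters and not a measured binding site.

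Library S2, a Hap-I adult, carried by far the most choroid plexus RNA of the 8 brain-like libraries, with S8, an aged Hap-I mouse, second for each of the 6 choroid plexus members and S1 next for Ttr, Folr1 and Kcne2. Ttr, which encodes the thyroid hormone and retinol carrier transthyretin, was at 412, 5403, 14.5 and 13.9 TPM in S1 to S4 and at 31.4, 86.8, 74.5 and 912 TPM in S5 to S8. S2 was 72.5 times the median of the other 7 libraries, and the adult and aged groups overlapped completely in range, since the lowest and the highest value were both adult. Folr1, which encodes the folate receptor that carries folate into cerebrospinal fluid, was at 5.73, 73.2, 1.74 and 1.92 TPM in S1 to S4 and at 2.05, 3.25, 5.12 and 15.4 TPM in S5 to S8. S2 was 22.6 times the median of the rest for this gene.

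**Figure D1:**
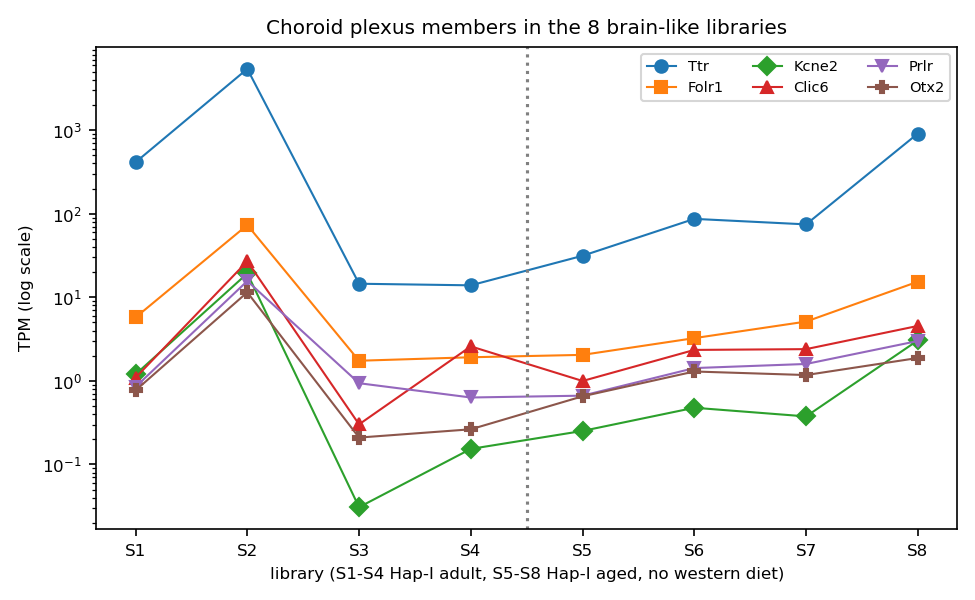
TPM (log axis) of the 6 choroid plexus members in each brain-like library, with Hap-I adults (S1 to S4) left of the dotted line and aged Hap-I mice (S5 to S8) right of it. Each line joins the values of 1 gene; all 6 peak in S2 and have their second highest value in S8.

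Kcne2, a potassium channel subunit of the apical membrane, was at 1.20, 19.3, 0.031 and 0.15 TPM in S1 to S4 and at 0.25, 0.48, 0.38 and 3.05 TPM in S5 to S8. It had the second largest excess in S2, at 51.4 times the median of the other libraries. Clic6, an intracellular chloride channel protein, was at 1.09, 27.0, 0.30 and 2.59 TPM in S1 to S4 and at 1.00, 2.35, 2.40 and 4.55 TPM in S5 to S8. Among the choroid plexus members it followed Ttr least closely, since S4 ranked higher and S1 lower than for Ttr. The Pearson correlation of log2(TPM + 1) with Ttr over the 8 libraries was 0.80 for Clic6 and 0.95 for Folr1, and without S2 it was 0.51 and 0.94. The points share their libraries, and the correlation is a description.

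Prlr, the prolactin receptor, was at 0.85, 15.7, 0.94 and 0.63 TPM in S1 to S4 and at 0.67, 1.42, 1.59 and 3.00 TPM in S5 to S8. Otx2, the homeobox factor that choroid plexus epithelium needs for its development, was at 0.77, 11.5, 0.21 and 0.26 TPM in S1 to S4 and at 0.65, 1.29, 1.17 and 1.88 TPM in S5 to S8. S2 stood at 16.7 times the median of the rest for Prlr and 14.9 times for Otx2. The 6 genes fell from S2 to S8 by much the same factor: the level in S8 was 0.158 to 0.21 of that in S2, and the level in S1 was 0.0405 to 0.0783 of it. The ciliary members did not share these proportions, with S8 at 0.751 to 2.92 and S1 at 0.404 to 1.37 of the level in S2.

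With S2 in the adult group the aged minus adult difference of mean log2(TPM + 1) was negative for the 5 choroid plexus members that passed the filter on low values, from -0.13 for Otx2 to -0.41 for Folr1. Without S2 it was positive for each of them, at 1.37 for Ttr, 0.67 for Folr1, 0.65 for Clic6, 0.50 for Prlr and 0.66 for Otx2. Kcne2 did not pass this filter, which asked for 1 TPM or more in at least 4 of the 24 libraries. The sign for Ttr also turned without S1 (0.14) or without S5 (0.27), and that for Otx2 without S5 (0.01). The signs for Folr1, Clic6 and Prlr turned with no other single library left out.

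Other genes of the choroid plexus, 30 for transport and 38 for secretion and identity, showed the same library. Of the 57 with a mean of 1 TPM or more over the 8 libraries, 48 were highest in S2, and 27 of these had S8 second. S2 was at least 2 times the median of the other 7 for 35 of the 57 (61.4%), against 1.49% of all 13555 genes at that mean level. Motile cilia genes outside the members leaned to S2 as well, though less. Of 108 at that mean level, 45 (41.7%) were highest in S2, where 8.2% of all genes were. S2 was at least 2 times the rest for 16 of the 108 (14.81%). The lists were chosen with these values known, so these counts describe S2 and are no independent evidence. By gene group, the median ratio was 4.37 for secretion and identity genes and 1.59 for transport genes, many of which are used by neurons and glia as well.

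**Figure D2:**
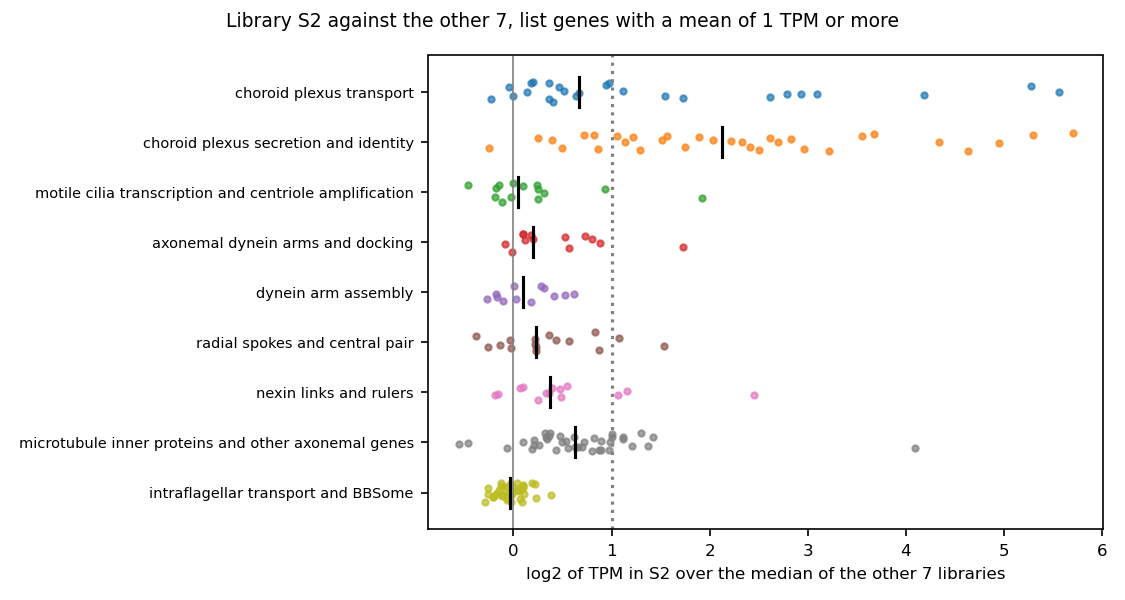
Each point is 1 gene outside the members, placed by the log2 of its TPM in S2 over the median of the other 7 brain-like libraries (x axis) and by gene list (y axis); black bars are list medians, and the dotted line marks a 2-fold excess. The points of the secretion and identity list reach farthest right, while genes of intraflagellar transport and the BBSome lie near 0.

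The most abundant genes of these lists were mostly not particular to S2. Among secretion genes, Enpp2, which encodes the secreted enzyme autotaxin, was at 128, 1052, 113 and 95.2 TPM in S1 to S4 and at 135, 156, 200 and 266 TPM in S5 to S8, with S2 at 7.77 times the median of the rest and S8 second. Cst3, the protease inhibitor cystatin C, was highest in S1 at 2839 TPM and stood at 1807 TPM in S2, and the kinase gene Stk39 was at 43.2 TPM in S2 against a median of 36.2 TPM elsewhere. Among transport genes, Atp1b1, a sodium pump subunit, and Car2, a carbonic anhydrase, were lower in S2 than that median, at 0.967 and 0.85 times it. Slc4a10, a bicarbonate transporter of choroid plexus and neurons, was at 1.28 times it.

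Genes with patterns most like Ttr were ranked by Pearson correlation of log2(TPM + 1) over the 8 libraries, among 6099 genes with a mean of 5 TPM or more and an SD of at least 0.2 on the log2 scale. The 8 leading ones were 1500015O10Rik (r = 0.96), Folr1 (0.95), Col9a3 (0.94), Cox6b2 (0.93), Slc4a2 (0.90), Kcnj13 (0.90), Mia (0.89) and Tox2 (0.89). The gene 1500015O10Rik was at 69.0 TPM in S2, 13.6 TPM in S8 and 6.99 TPM in S1, and Kcnj13, a potassium channel gene, was at 50.8, 7.04 and 2.49 TPM in the same libraries. Slc4a2, an anion exchanger gene, had a smaller range, from 11.3 TPM in S3 to 28.3 TPM in S2. These correlations share the libraries and are a description.

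Markers of other cell types were read in the same libraries. The summed level of 12 leptomeningeal fibroblast genes was 122 TPM in S2, the highest of the 8, and 7 of the 12 genes were highest in S2. It was nearly as high in S4, at 110.5 TPM, the library with the least Ttr, and was 38.01 to 73.8 TPM in the other 6, with S8 at 61.2 TPM. The sum for proximal tubule genes was 34.7 TPM in S2 and 24.2 TPM in S8, below the 124 TPM of S7. Of these genes, Lrp2, Slc22a8 and Aqp1 are also in a choroid plexus list, and Slc22a6 is also in the leptomeningeal list. The sum of 8 distal nephron genes was highest in S2, at 105 TPM, and 48.8 to 66.3 TPM in the other 7. This list includes Kl, which is also in a choroid plexus list. Kl alone was at 47.5 TPM in S2 and at 4.1 to 12.3 TPM in the other 7. The sum of 8 pituitary genes was 26.4 TPM in S6 and 24.4 TPM in S8 and at most 2.05 TPM in the other 6. The sum of 9 striatal genes was 1593 TPM in S4 and 139 to 242 TPM elsewhere. The part of these markers in the differences between libraries was not tested.

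Sntn and Spag6 were higher in each of the 4 aged brain-like libraries than in each of the 4 adult ones, while Ccdc153 and Foxj1 overlapped between the groups only through S2. Of all 13555 genes with a mean of 1 TPM or more over the 8 libraries, 10.4% were higher and 0.62% lower in each aged library. Sntn, which encodes sentan, a protein of the ciliary tip, was at 0.49, 1.02, 0.29 and 0.49 TPM in S1 to S4 and at 1.38, 1.91, 1.502 and 1.23 TPM in S5 to S8. Its mean was 0.573 ± 0.312 TPM (SD, n = 4) in adults and 1.504 ± 0.291 TPM (SD, n = 4) in aged mice. Spag6, a central pair protein, was at 1.10, 0.80, 1.08 and 1.15 TPM in S1 to S4 and at 2.30, 3.48, 2.96 and 2.33 TPM in S5 to S8. It was lowest in S2, the library with the most choroid plexus RNA, and its means were 1.03 ± 0.157 TPM and 2.77 ± 0.564 TPM (SD, n = 4 each).

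Ccdc153, a coiled-coil gene of motile ciliated cells, was at 1.75, 4.34, 0.74 and 2.33 TPM in S1 to S4 and at 3.39, 4.72, 5.74 and 3.46 TPM in S5 to S8. Without S2 the adult values end at 2.33 TPM and the aged ones start at 3.39 TPM. Foxj1, the transcription factor of the motile cilia programme, was at 3.24, 6.47, 2.08 and 3.14 TPM in S1 to S4 and at 3.58, 4.57, 4.10 and 4.86 TPM in S5 to S8. S2 was the highest of all 8 libraries for Foxj1, and the other 3 adult values lay below each aged value. On the log2(TPM + 1) scale, which understates changes of low genes, the aged minus adult difference was 0.88 for Spag6, 0.79 for Ccdc153, 0.68 for Sntn and 0.23 for Foxj1. Without S2 it was 0.83, 1.06, 0.81 and 0.48 in the same order.

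**Figure D3:**
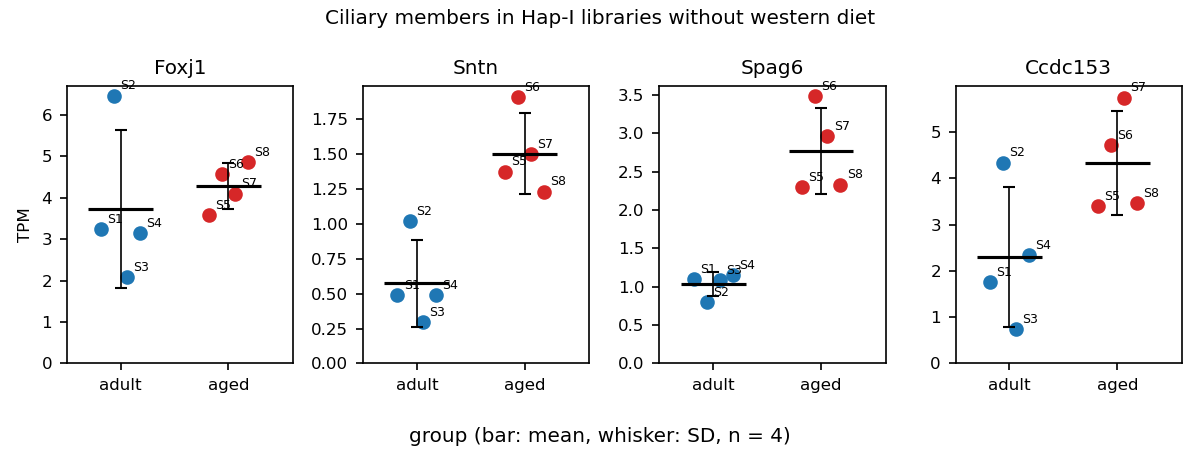
TPM of the 4 ciliary members in Hap-I adults (S1 to S4) and aged Hap-I mice (S5 to S8) without western diet; points are libraries, bars are means and whiskers are SD (n = 4). The groups are apart for Sntn and Spag6, and S2 is the adult library that reaches into the aged range for Foxj1 and Ccdc153.

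Spag6 has a paralogue, Spag6l, with which it shares 2.51% of the 31-base words of its transcripts, so most of its sequence can be told from the paralogue. Spag6l was at 3.59, 7.59, 4.19 and 5.99 TPM in S1 to S4 and at 5.82, 6.13, 5.91 and 6.83 TPM in S5 to S8, and its groups overlapped. The sum of both genes had a median of 6.21 TPM in adults and 9.02 TPM in aged mice, with S2 at 8.39 TPM inside the aged range of 8.12 to 9.61 TPM.

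Few genes of the wider motile cilia set were apart between the age groups. Of 108 such genes outside the members with a mean of 1 TPM or more over the 8 libraries, 2 were higher in each aged library than in each adult one and 1 was lower, where 10.4% of all 13555 genes were higher and 0.62% lower in this way. The median difference of the 116 motile cilia genes that passed the filter was 0.12, beside 0.10 for all 15200 genes, and 84 of the 116 differences were positive. Spag6 and Ccdc153 were exceeded by 1 of these 116 genes, Sntn by 4 and Foxj1 by 32. A linear model of limma, fitted to all 24 libraries, called 0 of the 116 (18 at an unadjusted p under 0.05) in this comparison, at a background of 0.428% of all genes called in either direction and 0.382% called higher. Without S2 it called 11 of them, each higher in aged mice, and 219 of all genes, 208 of them higher. As this contrast chose the members, nothing is read from these counts.

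**Figure D4:**
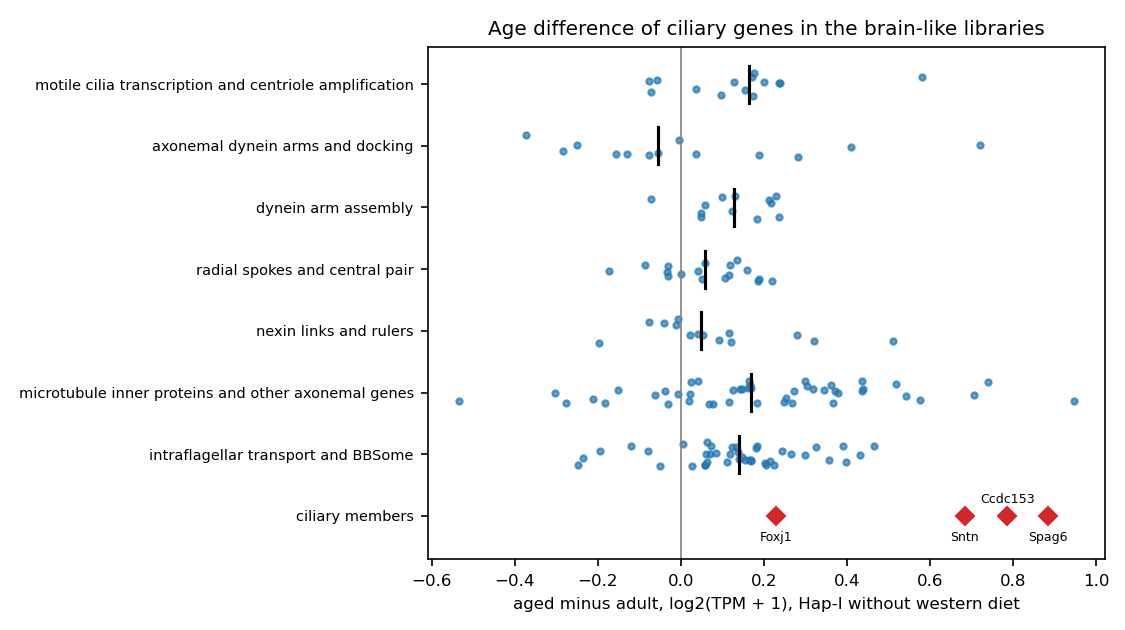
Difference of mean log2(TPM + 1) between aged and adult Hap-I libraries without western diet (x axis) for genes of 6 motile cilia lists and 1 list of intraflagellar transport and BBSome genes (y axis); points are genes, black bars list medians, and red diamonds the 4 ciliary members, which were chosen by this contrast. Sntn, Ccdc153 and Spag6 lie at the right end of the spread, and Foxj1 lies among the other genes.

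By role in the axoneme, the most abundant list genes other than Dnah9 differed by at most 0.21 on the log2 scale between the ages. Among dynein arm genes, Dnah9, an outer arm heavy chain, was at 4.96, 6.52, 2.13 and 2.56 TPM in S1 to S4 and at 8.38, 6.43, 6.53 and 6.01 TPM in S5 to S8, a difference of 0.72 on the log2 scale with overlapping groups. Dnal1 and Dnaic1 differed by 0.19 and by -0.01, and the assembly factors Ruvbl1, Cfap298 and Ruvbl2 by 0.06, 0.05 and 0.05. For the radial spoke and central pair genes Rsph9, Rsph3b and Nme5 the differences were -0.09, 0.05 and 0.04, and for the nexin link genes Drc3, Gas8 and Drc1 they were 0.12, -0.01 and -0.20. The tubulin genes Tuba1a and Tubb4b, which neurons also use, differed by -0.06 and -0.07, and Jazf1 of the same list by 0.17. In the list of inner microtubule and other axonemal genes, Arhgdig, Pltp and Tppp3 differed by -0.21, -0.18 and 0.15.

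Intraflagellar transport and BBSome genes, which build motile and non-motile cilia alike, had a median difference of 0.14 over the 42 genes, beside 0.10 for all genes. The motor genes Kifap3 and Kif3a and the transport gene Ift20, the most abundant of the list, differed by 0.17, 0.17 and 0.06, and Kifap3 did not overlap between the groups. Of the 41 with a mean of 1 TPM or more, 3 (7.3%) were highest in S2, where 8.2% of all 13555 genes were. For 0 of the 41 was S2 at 2 times the rest, where it was for 1.49% of all genes.

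The genes most like Foxj1 over the 8 libraries, by the measure used for Ttr and among 6100 genes, were Lrrc23 (r = 0.97), Lbp (0.93), Rsph1 (0.93), Car14 (0.92), Cox6b2 (0.92), Htr1a (0.91), Gm8741 (0.90) and Kl (0.90). Lrrc23 and Rsph1 encode radial spoke proteins, while Lbp, Car14 and Kl are in the choroid plexus lists. Lrrc23 was at 3.54, 9.73, 2.24 and 4.48 TPM in S1 to S4 and at 4.92, 5.75, 5.46 and 5.76 TPM in S5 to S8. Among the other ciliary members, the correlation with Foxj1 was 0.82 for Ccdc153, 0.67 for Sntn and 0.20 for Spag6, and without S2 it was 0.88, 0.85 and 0.81. The choroid plexus members followed Foxj1 too, at 0.79 (Kcne2) to 0.88 (Clic6). Without S2 their correlations with Foxj1 were 0.61 (Kcne2) to 0.91 (Otx2).

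Other markers also differed between the adult and aged brain-like groups. The summed level of 8 oligodendrocyte genes was 2959 to 4031 TPM in adults and 4625 to 5839 TPM in aged mice. Of these 8 genes 4 were higher in each aged library, where 10.4% of all 13555 genes with a mean of 1 TPM or more were. The neuronal sum was 5780 to 6595 TPM against 6882 to 7317 TPM, and that of 10 hippocampal and cortical genes 287 to 419 TPM against 434 to 518 TPM. Gene by gene, 2 of the 12 neuronal and 0 of the 10 hippocampal and cortical genes were higher in each aged library. The leptomeningeal sum, at 67.4 to 122 TPM against 38.01 to 71.9 TPM, overlapped. Of its 12 genes 2 were lower in each aged library, where 0.62% of all genes at that mean level were. The astrocyte sum of 9 genes overlapped too, at 2303 to 2756 TPM against 2379 to 2654 TPM, and 2 of the 9 were higher in each aged library. Of 6 genes of airway and oviduct secretory cells, which neighbour motile ciliated cells in those organs, 2 were listed at 0 in all 8 libraries, and their sum was 4.16 to 5.57 TPM in adults and 4.48 to 6.91 TPM in aged mice. The part of these markers in the difference of the ciliary members was not tested.

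In the 16 kidney libraries only Ttr, Folr1 and Prlr were expressed at more than about 1 TPM, and the ventricular members were nearly silent. Otx2 and Sntn were listed at 0 in all 16. Kcne2 was at most 0.38 TPM, Foxj1 at most 0.51 TPM, Spag6 at most 0.21 TPM, Ccdc153 at most 0.39 TPM and Clic6 at most 1.09 TPM. Ordered by the median over these libraries, Folr1 stood at 394 TPM (range 259 to 681), Ttr at 79.1 TPM (44.8 to 266) and Prlr at 33.1 TPM (1.01 to 125). The ranges of Folr1 and Ttr barely touched, and those of Ttr and Prlr overlapped. The other 6 members that passed the filter (Clic6, Otx2, Foxj1, Sntn, Spag6 and Ccdc153) did so only through the brain-like libraries, so they had no room to differ in kidney and are left out of the counts of members below.

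Ttr was above the highest C57 value in 10 of the 12 libraries on western diet. In Hap-I it was at 53.6, 153, 159 and 266 TPM in A1 to A4 (adult) and at 45.4, 64.8, 117 and 81.0 TPM in B1 to B4 (aged). In Hap-II adults it was at 120, 77.2, 94.5 and 110 TPM in C1 to C4, and in C57 it was at 44.8, 46.2, 46.1 and 55.5 TPM in S9 to S12. Each Hap-II library lay above each C57 library, and among the Hap-I adults A1 lay inside the C57 range. Against C57, limma gave a log2 difference of 1.49 ± 1.25 (SE, adjusted p = 0.31) for Hap-I adults on the diet and 1.03 ± 1.25 (SE, adjusted p = 0.52) for Hap-II adults. The shared spread in that model includes the brain-like libraries, where Ttr varied with S2. Without those 8 libraries the same differences had SE 0.38 and adjusted p of 0.0063 and 0.047, so both calls depend on which libraries set the spread. With 4 Y-linked genes as a covariate in all 24 libraries the differences were 0.87 and 0.58, with adjusted p of 0.67 and 0.78 by limma.

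Folr1 was at 318, 301, 342 and 303 TPM in A1 to A4 and at 425, 546, 487 and 493 TPM in S9 to S12, so that Hap-I adults on the diet and C57 adults did not overlap. It was at 268, 605, 606 and 259 TPM in B1 to B4 and at 681, 364, 289 and 431 TPM in C1 to C4, and both of these groups straddled the C57 range. The Hap-I adult difference from C57 was -0.62 ± 0.69 (SE, adjusted p = 0.45 by limma), and it passed the test with only these 2 groups in the model (adjusted p = 0.0019). Its sign depended on scaling: the median of all genes in this comparison was -0.68, and after median-of-ratios rescaling, which moved that median to -0.05, the Folr1 difference was 0.34.

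Prlr was lower in Hap-I adults on the diet than in C57 adults, at 43.0, 8.54, 3.33 and 1.29 TPM against 48.9, 111, 100 and 90.7 TPM. The difference was -3.40 ± 1.09 (SE, adjusted p = 0.011 by limma), and Prlr was the 1 called of the 3 members expressed in kidney, where 61.4% of all genes were called. It was at 23.2, 125, 4.97 and 1.01 TPM in B1 to B4 and at 74.9, 46.1, 9.28 and 2.54 TPM in C1 to C4. The Hap-II difference from C57 of -2.16 ± 1.09 (SE) missed the threshold (adjusted p = 0.11 by limma). It passed without C1 (adjusted p = 0.042 by limma) and with array weights (adjusted p = 3.0e-04). Over the 17 alternatives run the difference ranged from -3.76 to -0.61, with adjusted p of up to 0.63 by limma. In the Hap-II comparison limma called 0 of the 3 (0 at an unadjusted p under 0.05), where 46.7% of all genes were called.

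**Figure D5:**
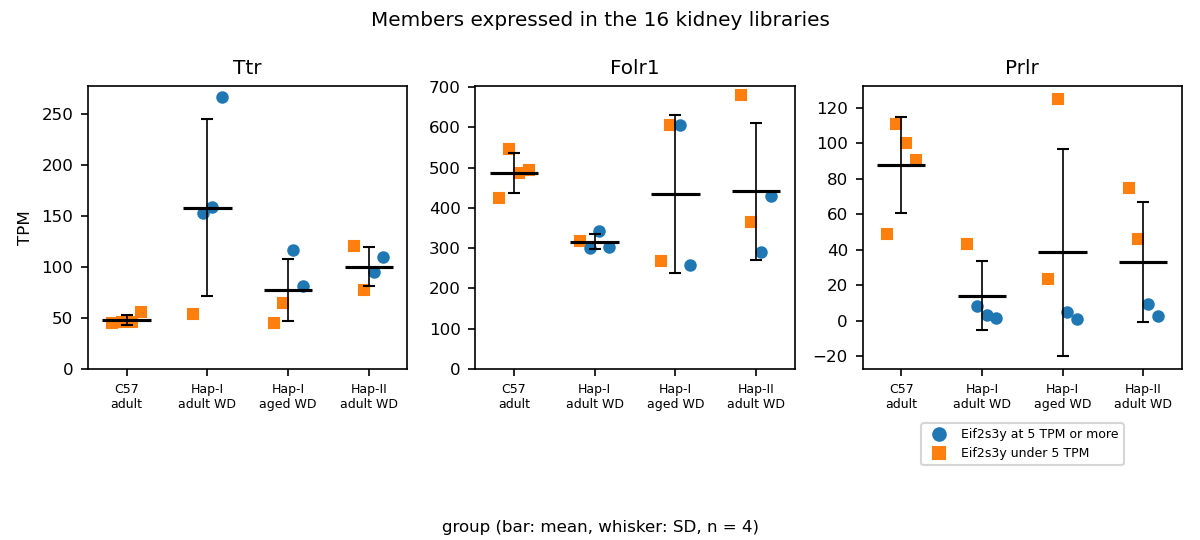
TPM of Ttr, Folr1 and Prlr in the 16 kidney libraries by group; points are libraries, bars means and whiskers SD (n = 4), and blue circles mark libraries with 5 TPM or more of the Y-linked gene Eif2s3y. In the Prlr panel each blue circle lies below each orange square, at 1.01 to 9.28 TPM against 23.2 to 125 TPM.

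Prlr moved with Y-linked RNA in these libraries. In the 7 kidney libraries with 5 TPM or more of Eif2s3y, Prlr was at 1.01 to 9.28 TPM (median 3.33), and in the 9 without it at 23.2 to 125 TPM (median 74.9). None of the 4 C57 libraries had that level of Eif2s3y, whereas 3 of 4 Hap-I adults on the diet, 2 of 4 aged Hap-I mice and 2 of 4 Hap-II adults had it. C1, without which the Hap-II difference in Prlr passed, was listed at 0 TPM of Eif2s3y. With the Y-linked genes as a covariate, chosen after the data were seen, the Hap-I difference in Prlr was -1.23 with an adjusted p of 0.31 by limma, and after quantile normalization the adjusted p was 0.052. The only Hap-I adult on the diet below that level of Eif2s3y, A1, was at 43.0 TPM, against 48.9 to 111 TPM in C57. The brain-like libraries all had 5 TPM or more of Eif2s3y. Ttr leaned the other way in kidney, at 81.0 to 266 TPM in the 7 libraries with that level of Eif2s3y. In the 9 without it Ttr was at 44.8 to 120 TPM, so the ranges overlapped. A1 and B1, the libraries on western diet not above the highest C57 value of Ttr, were among those 9.

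Exact two-sided permutation tests on the means of log2(TPM + 1) were run for Ttr, Folr1 and Prlr in 4 comparisons, 12 tests in all. With 4 libraries against 4 the smallest p they can give is 0.0286, and this was reached for Folr1 and Prlr in Hap-I adults on the diet against C57 and for Ttr in Hap-II adults against C57. After Benjamini-Hochberg adjustment over the 12 exact tests each of these was at 0.114.

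No member was called by limma for age or for haplotype on western diet. Between aged and adult Hap-I mice on the diet 0 of the 3 members expressed in kidney were called (0 at an unadjusted p under 0.05), where 2.91% of all genes were called. The differences were -0.90 ± 1.25 for Ttr, 0.34 ± 0.69 for Folr1 and 0.78 ± 1.09 for Prlr (SE), with adjusted p of 0.70, 0.82 and 0.70 by limma. For haplotype, A1 to A4 against C1 to C4, 0 of the 3 were called (0 at an unadjusted p under 0.05), where 0.0724% of all genes were called. The differences were 0.46 ± 1.25 for Ttr, -0.41 ± 0.69 for Folr1 and -1.24 ± 1.09 for Prlr (SE), with adjusted p of 0.95, 0.88 and 0.75 by limma. These intervals are wide, and a miss of the threshold does not show that the levels were alike.

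The remaining genes of the lists were measured in kidney in the same comparisons. Of the 60 choroid plexus genes tested, 33 were lower and 0 higher in Hap-I adults on the diet than in C57, with a median of -1.15 beside -0.68 for all genes, and 24 were lower and 0 higher in Hap-II adults, with a median of -0.76 beside -0.50. The shares called were 55% and 40%, where 61.4% and 46.7% of all genes were called. The filter counted the brain-like libraries too, so a gene low in kidney could pass it through them. Nothing is therefore read from these shares and medians against those of all genes. Igf2, a growth factor gene, fell from 86.3 ± 20.1 TPM in C57 to 10.3 ± 20.2 TPM in A1 to A4 (SD, n = 4), a log2 difference of -4.91 with an adjusted p of 0.0024 by limma. Lrp2, which encodes the endocytic receptor megalin of the proximal tubule, fell from 244 ± 60.7 to 24.9 ± 11.3 TPM, Cp, ceruloplasmin, from 68.8 ± 13.2 to 11.3 ± 7.48 TPM, and Ace, the angiotensin-converting enzyme, from 95.9 ± 11.7 to 16.2 ± 5.68 TPM (SD, n = 4; adjusted p by limma from 3.2e-05 to 0.0010). In Hap-II adults the 4 largest were Igf2 at -3.85, Lrp2 at -2.56, Cp at -2.03 and the keratin gene Krt18 at -2.01. Several of these are kidney genes in their own right. Igf2 lost its call in both comparisons with the Y-linked covariate (adjusted p of 0.060 and 0.077), and in Hap-II adults also without C3 or C4 (adjusted p of 0.081 and 0.072 by limma).

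Motile cilia genes were low in kidney, and 40 of 116 were lower and 0 higher in Hap-I adults on the diet than in C57, with a median of -0.33. In Hap-II adults 29 of 116 were lower and 0 higher, with a median of -0.24. The shares called were 34.5% and 25%, where 61.4% and 46.7% of all genes were called. Genes that passed the filter through the brain-like libraries are low in kidney, where log2(TPM + 1) understates differences. Nothing is therefore read from these medians and shares against those of all genes. The 4 largest in Hap-I adults were Ccdc170 at -2.63, Pltp at -1.56, Gas8, a nexin link gene, at -1.54 and Riiad1 at -1.53, and in Hap-II adults they were Ccdc170 at -2.02, Maats1 at -1.22, Gas8 at -1.20 and Tuba1a at -1.17. Ccdc170 went from 13.1 ± 5.68 TPM in C57 to 2.29 ± 4.01 TPM in Hap-I adults and 3.78 ± 4.10 TPM in Hap-II adults (SD, n = 4). Its calls were lost with the Y-linked covariate (adjusted p of 0.25 and 0.28 by limma), and in Hap-II adults also when any of C3, C4, S10, S11 or S12 was left out (adjusted p from 0.072 to 0.17). Riiad1 lost its call when any of A1, A4, S9 or S12 was left out (adjusted p by limma from 0.066 to 0.088), and Tuba1a lost its Hap-II call after median-of-ratios rescaling (adjusted p = 0.16). Of 42 intraflagellar transport and BBSome genes, 28 were lower and 0 higher in Hap-I adults (66.7% called, beside 61.4% of all genes). In Hap-II adults 21 of them were lower and 2 higher (54.8% called, beside 46.7% of all genes). The direction of these counts depended on scaling. After median-of-ratios rescaling, 12 of 18 motile cilia genes called were lower in Hap-I adults and 5 of 8 in Hap-II adults, and after quantile normalization 6 of 18 and 6 of 11. For intraflagellar transport and BBSome genes the rescaling gave 8 higher and 11 lower in Hap-I adults, with 5 each way in Hap-II adults. Quantile normalization gave 10 higher with 5 lower in the former and 9 higher with 4 lower in the latter. Choroid plexus genes stayed mostly lower, with 13 of 16 and 8 of 10 lower after the rescaling, and 18 of 19 and 13 of 15 lower after quantile normalization. Over all genes the same rescaling changed the Hap-I split from 387 higher and 8940 lower to 2600 and 2944, and the Hap-II split from 480 and 6615 to 2092 and 2257.

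With age on western diet, limma called 1 of 116 genes of the motile cilia lists, where 2.91% of all genes were called. It called 0 of 60 choroid plexus genes and 0 of 42 intraflagellar transport and BBSome genes. At an unadjusted p under 0.05 by limma the counts were 16, 3 and 7 in the same order. Genes that passed the filter through the brain-like libraries had little room to be called here. The 1 called was Pltp, which is known for the phospholipid transfer protein of plasma and not as a part of the axoneme. It was at 3.35 ± 1.73 TPM in adult and 8.55 ± 2.66 TPM in aged Hap-I mice (SD, n = 4), a log2 difference of 1.16 with an adjusted p of 0.036 by limma. It lost the call with only those 2 groups in the model (adjusted p = 0.30) and without the brain-like libraries (adjusted p = 0.19), and when any of A2, A3, A4, B2 or B3 was left out (adjusted p by limma from 0.084 to 0.13). Between haplotypes, limma called 0 genes of these 3 sets, where 0.0724% of all genes were called. At an unadjusted p under 0.05 by limma the counts were 7 of 116, 1 of 60 and 5 of 42. After median-of-ratios rescaling the split over all genes for age on the diet was 237 higher and 205 lower, where it had been 411 and 32.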

How the data were processed

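The authors deposited 1 table of TPM per gene and library. Kallisto, DESeq2 and GRCm38 are named, with neither version nor role, in the submitters' processing notes, and no further step is given there. The deposited values summed to between 904693 and 944019 per library, and depth is unknown. Of 30153 identifiers, 29732 matched a symbol in GENCODE M21 (GRCm38). Replicates are taken as separate animals from the design text, which states 4 per group.

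Values were tested as log2(TPM + 1) for 15200 genes that reached 1 TPM in 4 or more libraries. Group means over all 24 libraries were estimated with limma 3.58.1 (R 4.3.3, mean-variance trend); tests were two-sided, and p-values were adjusted by Benjamini-Hochberg in each of 5 comparisons, with calls below 0.05. The code was tested on simulated data. Comparisons against C57 share the same 4 control libraries, and genotype and diet cannot be told apart in them. The main model has no term for Y-linked RNA, which was unevenly spread over these groups as given above. Tables were handled with Python 3.11.15.

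Members and lists were chosen with earlier results of these data known. Named genes were the members and Spag6l, the 3 most abundant other genes of each choroid plexus and cilia list over the 8 brain-like libraries, up to 4 called genes with the largest change per kidney comparison, and the 8 genes most like Ttr and Foxj1. Cell type lists are given by sums. Alternatives were another pseudocount, filter, scaling, set of libraries, weights, a replicate block and leaving out libraries; 2 were added after the data were seen, namely Y-linked genes as a covariate and leaving out S1, S2 and S8.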

Additional observations from a re-analysis of the deposited data

Results flagged for a closer look

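Of 38 groups of 4 libraries in which a member or Spag6l reached 1 TPM, 11 held a library set apart from the other 3, with a gap to its neighbour, relative to the group's range, above Dixon's 95% critical value. Of these, 8 are values in S2 or S8 of the kind that chose the members, 6 of them from the single library S2, so they are a description and are not set against chance. In Hap-I adults without western diet this library was S2 for Ttr (5403 TPM), Folr1 (73.2 TPM), Kcne2 (19.3 TPM), Clic6 (27.0 TPM), Prlr (15.7 TPM) and Otx2 (11.5 TPM). In aged Hap-I mice without the diet it was S8 for Ttr (912 TPM) and Kcne2 (3.05 TPM). In the kidney libraries it was S12 for Ttr in C57 adults (55.5 TPM), C1 for Clic6 in Hap-II adults on the diet (1.09 TPM) and B2 for Spag6l among B1 to B4 (1.12 TPM). The Clic6 and Spag6l groups reached 1 TPM only through the library then set apart, so these are not set against chance either. No ciliary member was set apart in either brain-like group.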

How the results depend on the processing

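For age without western diet, the 65 genes called became 3 with a pseudocount of 0.1, 262 without a filter, 27 with a filter at 5 TPM, 19 after median-of-ratios rescaling, 22 after quantile normalization, 2 with only the 2 groups, 550 with array weights and 179 without the 3 libraries with most Ttr, and 35 to 219 with 1 library left out. The 0 motile cilia genes called became 3 without a filter, 7 with array weights, 7 without those 3 libraries and 0 to 11 with 1 library left out; the 0 choroid plexus genes became 3, 2 and 0 to 2 under the last 3 of these. For age on western diet, the 443 genes became 272 without a filter, 267 with the filter at 5 TPM, 262 after quantile normalization, 2 with only the 2 groups, 7 without the brain-like libraries, 2680 with array weights, 291 with the Y-linked covariate and 49 to 981 with 1 library left out. For haplotype, the 11 genes became 6 with the filter at 5 TPM, 6 with only the 2 groups, 7 without the brain-like libraries, 83 with array weights and 5 to 10 with 1 library left out. For Hap-I against C57, the 9327 genes became 5544 after median-of-ratios rescaling, 4988 after quantile normalization and 5913 with the Y-linked covariate, and 7746 to 9480 with 1 library left out. Of the members that passed the filter, the 1 called there became 0 after quantile normalization and with the Y-linked covariate, 3 with only the 2 groups and 2 without the brain-like libraries, and stayed 1 with 1 library left out. For Hap-II against C57, the 7095 genes became 4349, 4105 and 4336 under the same 3 settings and 4082 to 8456 with 1 library left out. The 0 members called there became 1 with only the 2 groups, 1 without the brain-like libraries, 1 with array weights and 0 to 1 with 1 library left out. The cause of these shifts was not tested.

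Signs turned in 5 cases, none of them called: Folr1 after median-of-ratios rescaling for age on western diet (-0.073), for Hap-I against C57 (0.34) and for Hap-II against C57 (0.47), Prlr for age on western diet without Hap-I aged WD replicate 2 (-0.28, and up to 1.71 with another library left out), and Prlr for haplotype with array weights (0.037). The age differences of Sntn, Spag6, Ccdc153 and Foxj1 without western diet stayed positive under the 15 alternatives run, at 0.44 to 1.34, 0.65 to 1.34, 0.52 to 1.20 and 0.05 to 0.51. Same-numbered libraries on western diet correlated at -0.178 to 0.533 in 12 pairs, 8 of them over 0.1, and not every library correlated best with its own number, so the numbers were not taken as pairs. With the title number as a replicate block, 1 gene was called for age on western diet and 4 for haplotype.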
